A study of Mus musculus with 20 samples.

Results

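Fkbp5 knockout hippocampus was compared with wild-type hippocampus over both treatments of the study, using every library: 10 of the 20 libraries came from Fkbp5 knockout (KO) mice and 10 from wild-type (WT) mice. Each genotype held 5 libraries from mice given a single intraperitoneal dose of saline and 5 from mice given lipopolysaccharide (LPS) at 3 mg/kg, a bacterial cell wall component that provokes inflammation. The 4 groups were KO saline, KO LPS, WT saline and WT LPS. All mice were males of 12 weeks, the strain label is C57BL/6J throughout, and tissue was taken at day 7 after the dose. The labels do not say how the knockout was made, which exons or cells it affects, on which genetic background it was bred or whether the WT mice were littermates. They also do not state that replicates are separate animals, so p-values measure the spread between these libraries. Alleles inherited together with the knockout and the loss of Fkbp5 itself cannot be told apart in this design.

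Fkbp5 encodes FKBP51, an immunophilin that binds the chaperone HSP90 in complex with the glucocorticoid receptor. It holds the receptor in a state with low affinity for hormone, and the active receptor induces Fkbp5 in return, a short feedback loop on the stress hormone response. The gene is expressed in the hippocampus, a brain region rich in glucocorticoid and mineralocorticoid receptors.

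RNA-seq libraries of hippocampal RNA were read as counts per gene, and levels are given below as CPM, counts scaled to an effective library size of 1000000, which is the library total times its TMM scaling factor. Totals ran from 16747000 to 27230000 counts in KO libraries and from 16653000 to 21810000 in WT libraries. Of 55536 genes in the table, 33626 had a count and 16419 were abundant enough to be tested. Replicates 1-2 of every group stood apart from replicates 3-5: mitochondrially encoded genes took 4.66% to 5.68% of counts in the 8 libraries with numbers 1-2 and 8.41% to 11.4% in the 12 with numbers 3-5. This library set was therefore a term of the model beside treatment. The labels record no batch that would say what the sets are. The 8 markers of hippocampal identity tested were detected at a summed 836 to 1430 CPM in KO and 813 to 1294 CPM in WT libraries, and none passed the test between genotypes (2 with an unadjusted p under 0.05; DESeq2 and limma-voom called 0). In bulk tissue, fewer cells of a type and less RNA per cell cannot be told apart.

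Knockout libraries carried less Fkbp5 RNA, but not none. Fkbp5 (ENSMUSG00000024222, chromosome 17, 28399094 to 28517527, minus strand, mm10) read 25.1 CPM in the lowest, 28.3 CPM in the median and 36.0 CPM in the highest KO library. The WT libraries read 56.7, 64.8 and 73.4 CPM at the same points. Every KO library lay below every WT library, and the KO mean was 46.5% of the WT mean (30.1 ± 4.07 CPM against 64.6 ± 5.76 CPM, SD, n = 10 each). The log2 fold change was -1.10 ± 0.07 (SE; adjusted p = 5.91e-10, edgeR quasi-likelihood test with Benjamini-Hochberg adjustment, as for every adjusted p of a gene below). It was -1.05 in replicates 1-2 and -1.13 in replicates 3-5, fitted separately. Counts per gene do not show which exons the remaining reads come from.

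**Figure D1:**
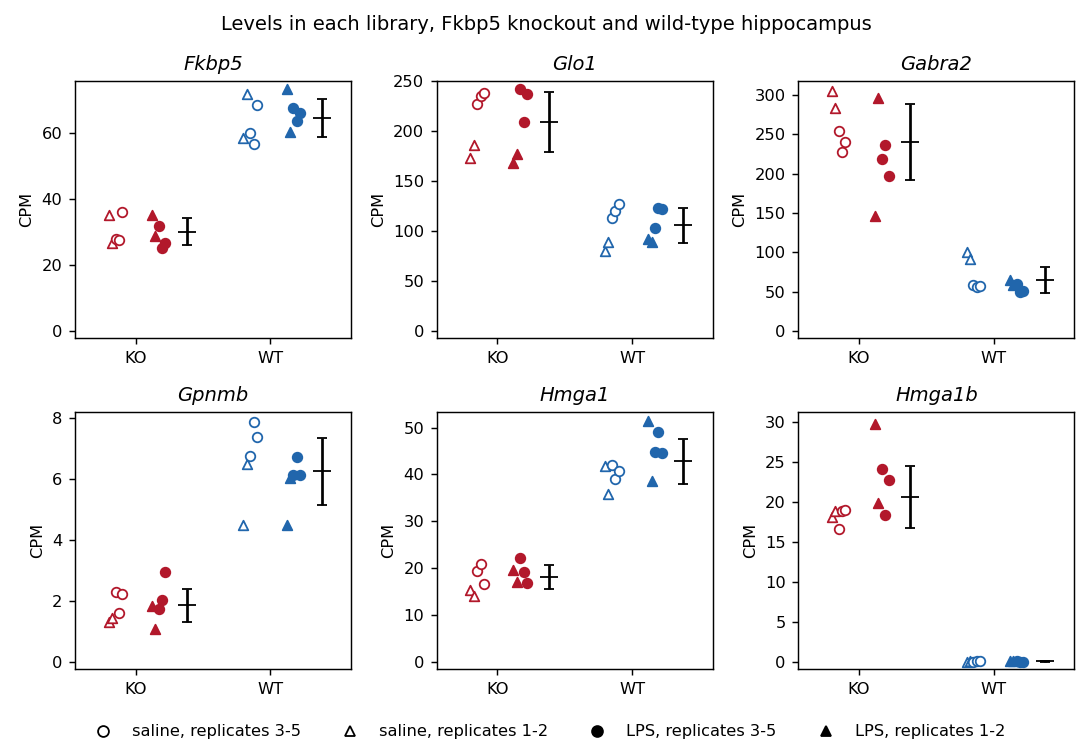
CPM of 6 genes in each library, KO left and WT right; open symbols are saline and filled symbols LPS, triangles are replicates 1-2 and circles replicates 3-5, and the black bars give mean and SD over 10 libraries. KO and WT libraries do not overlap for any of the 6 genes: Glo1, Gabra2 and Hmga1b are higher in KO, and Fkbp5, Gpnmb and Hmga1 lower.

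Over both treatments, 162 of 16419 genes differed between KO and WT at an adjusted p under 0.05 (0.987% of genes tested), 87 of them higher in KO (0.53%) and 75 lower (0.457%). Before adjustment, 1790 genes (10.9%) had p under 0.05. The median size among the 162 was 0.67 on the log2 scale. Of them, 62 were below 0.5, while 41 were more than 2-fold higher and 13 more than 2-fold lower. For 49 of the 162 genes (0.298% of genes tested), every KO library lay outside the WT range of its library set, on the same side. Outside the 162, 2 more genes were separated in this way, for 51 in all (0.311%). The count rests partly on single libraries: it was 254 without KO LPS replicate 1, and 116 without KO LPS replicate 3. Genes higher in KO numbered 138 and genes lower in KO 116 without KO LPS replicate 1, and lower genes numbered 47 without KO LPS replicate 3.

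Among the genes with the smallest p were neighbours of Fkbp5, copies of such neighbours, and protein-coding genes of other chromosomes such as Gabra2 and Gpnmb. Gabra2 (chromosome 5, 70957597 to 71095849, minus strand), the α2 subunit of the GABA-A receptor, was higher in every KO library. It read 146, 238 and 305 CPM in the lowest, median and highest KO library, against 50.0, 58.5 and 100.45 CPM in WT. The groups did not overlap. KO LPS replicate 1 was the lowest KO library, and the highest WT value was in WT saline replicate 1. The log2 fold change was 1.92 ± 0.10 (adjusted p = 2.68e-11). Of the 12 GABA-A subunits tested Gabra2 alone passed in edgeR (2 in DESeq2), and the median log2 fold change of the 12 was 0.00, the same as the median of all genes tested.

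Gpnmb (chromosome 6, 49036546 to 49070929, plus strand) encodes a transmembrane glycoprotein of lysosomes that activated microglia and macrophages express. It read 1.06, 1.80 and 2.95 CPM in KO libraries and 4.48, 6.32 and 7.87 CPM in WT libraries at the lowest, median and highest. No KO library reached the lowest WT library, and the log2 fold change was -1.77 ± 0.13 (adjusted p = 2.16e-09). Of 18 genes of activated microglia tested, Gpnmb was the only one to pass by edgeR, DESeq2 or limma-voom, with a list median of 0.03; 7 of the 18 had an unadjusted p under 0.05 (38.9%, against 10.9% of all genes tested). Among 14 homeostatic microglia genes none passed, with a median of -0.09 and 4 genes at an unadjusted p under 0.05.

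Several of the largest differences belonged to genes with a near-identical copy elsewhere in the genome, where reads from one copy can be assigned to the other. A copy here is another transcript that matches 30% or more of the gene's transcript at 95% identity or above. Of 883 genes with such a copy, 21 were called (2.38%), 15 higher and 6 lower in KO, against 141 of 15536 without one (0.908%). Among 227 processed pseudogenes, which are reverse-transcribed gene copies, 9 were called (3.96%), all 9 higher in KO, against 125 of 14339 protein-coding genes (0.872%). The files do not say how reads that fit several places were counted.

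The first pair is Hmga1, a chromatin protein that binds AT-rich DNA, and Hmga1b, a copy annotated on chromosome 11 (120762794 to 120764419, plus strand). Hmga1 itself lies on chromosome 17 (27556497 to 27563674, plus strand), 0.835 Mb from Fkbp5. Their transcripts were 99.8% identical over 98.5% of the length, and the 324 coding bases had no substitution. The first 300 coding bases, shown because reads within them cannot be assigned to one copy, are all in lower case since no base differs.
Hmga1b: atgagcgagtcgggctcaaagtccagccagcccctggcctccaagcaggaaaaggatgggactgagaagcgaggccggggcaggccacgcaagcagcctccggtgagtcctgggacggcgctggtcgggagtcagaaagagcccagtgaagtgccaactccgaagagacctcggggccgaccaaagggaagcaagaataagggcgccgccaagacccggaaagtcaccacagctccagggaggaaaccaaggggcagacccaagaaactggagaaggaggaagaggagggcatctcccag
Hmga1: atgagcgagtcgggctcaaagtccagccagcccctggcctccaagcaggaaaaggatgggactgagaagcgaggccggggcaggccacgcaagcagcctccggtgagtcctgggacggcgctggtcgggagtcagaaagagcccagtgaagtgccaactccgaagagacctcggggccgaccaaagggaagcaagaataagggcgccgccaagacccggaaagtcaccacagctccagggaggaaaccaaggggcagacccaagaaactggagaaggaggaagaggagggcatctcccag

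Hmga1b read 16.6, 18.9 and 29.7 CPM in the lowest, median and highest KO library, against 0, 0.0499 and 0.138 CPM in WT (log2 fold change 8.49 ± 0.21, adjusted p = 2.07e-18). Hmga1 read 14.0, 18.1 and 22.2 CPM in KO and 35.9, 41.9 and 51.5 CPM in WT (log2 fold change -1.24 ± 0.07, adjusted p = 2.68e-11). KO and WT libraries did not overlap at either gene, and the copies moved in opposite directions. Summed, the pair read 38.7 ± 5.34 CPM in KO and 42.9 ± 4.76 CPM in WT (SD, n = 10 each). An exact permutation of genotype within treatment and library set gave p = 0.0482 for the sum, two-sided, and an adjusted p of 0.0704 over 19 pairs. The sum differed by -4.15 CPM, KO minus WT, while Hmga1b alone averaged 20.6 CPM in KO and 0.0504 CPM in WT.

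The second pair is Glo1, glyoxalase 1, which detoxifies methylglyoxal, and Gm13443, a processed pseudogene of it on chromosome 2 (35340409 to 35340963, plus strand). Glo1 lies on chromosome 17 (30584936 to 30626871, minus strand), 2.07 Mb from Fkbp5. The 555 bases of Gm13443 aligned to the whole Glo1 coding sequence with 3 substitutions and no gap.

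Here both members rose together. Gm13443 read 6.19, 12.9 and 19.2 CPM in the lowest, median and highest KO library and 0, 0.190 and 0.320 CPM in WT (log2 fold change 6.10 ± 0.22, adjusted p = 6.24e-15). Glo1 read 168, 218 and 242 CPM in KO and 79.7, 108 and 127 CPM in WT (log2 fold change 0.99 ± 0.05, adjusted p = 1.08e-12). At neither gene did any KO library fall within the WT range. Within KO libraries the 4 of replicates 1-2 read 168 to 186 CPM of Glo1 and the 6 of replicates 3-5 read 209.5 to 242 CPM. The summed pair read 222 ± 34.2 CPM in KO and 106 ± 17.5 CPM in WT (p = 0.000139, the smallest the 14400 arrangements of the exact permutation test can give; adjusted p = 0.00132).

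The third pair differed among the KO libraries. Gm13736 is a processed pseudogene on chromosome 2 (87526145 to 87526397, plus strand) of Srp9, which encodes a subunit of the signal recognition particle and lies on chromosome 1 (182124737 to 182132407, plus strand). All 253 bases of Gm13736 matched Srp9 coding bases 2 to 254 without a substitution.
Gm13736: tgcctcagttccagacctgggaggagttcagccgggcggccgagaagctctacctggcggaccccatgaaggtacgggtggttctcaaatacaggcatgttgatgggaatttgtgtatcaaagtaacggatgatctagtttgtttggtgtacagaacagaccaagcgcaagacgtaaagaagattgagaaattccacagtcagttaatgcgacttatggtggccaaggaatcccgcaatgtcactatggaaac
Srp9: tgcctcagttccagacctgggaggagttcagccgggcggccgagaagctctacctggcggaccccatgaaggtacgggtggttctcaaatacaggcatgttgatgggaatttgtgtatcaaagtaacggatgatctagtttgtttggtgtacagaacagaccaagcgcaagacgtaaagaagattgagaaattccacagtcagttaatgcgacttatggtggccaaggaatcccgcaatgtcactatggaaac

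In KO saline replicates 1 to 5, Gm13736 read 10.1, 0.17, 0.144, 22.5 and 8.68 CPM, and Srp9 read 49.6, 86.3, 82.1, 33.7 and 56.0 CPM in the same order. In KO LPS replicates 1 to 5, Gm13736 read 10.5, 12.3, 10.6, 12.2 and 0.125 CPM, and Srp9 read 55.4, 66.1, 52.6, 51.9 and 88.9 CPM. WT libraries read 0 to 0.0922 CPM of Gm13736 and 64.0 to 99.3 CPM of Srp9. The 3 KO libraries with the lowest Gm13736 values, KO saline replicates 2 and 3 and KO LPS replicate 5, were the 3 with the highest Srp9 values, and the KO library with the most Gm13736, KO saline replicate 4, was the one with the least Srp9. Gm13736 was called higher in KO (log2 fold change 7.86 ± 1.15, adjusted p = 0.000835), Srp9 was not (-0.39, adjusted p = 0.264). The summed level was 71.0 ± 11.9 CPM in KO and 82.4 ± 10.7 CPM in WT (exact permutation p = 0.0425, adjusted p = 0.0704).

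Each called gene with a copy was paired with the copy that had the highest mean CPM over all libraries. Of the 19 such pairs, 8 differed in the summed level at an adjusted p under 0.05 by the same exact permutation test. Each pair was taken because a member was called, so the p of a sum is not independent of that call. In 4 of the 8 the copy averaged under 1 CPM in both genotypes, and the sum there is nearly the called gene alone. Gm12751, whose 381 bases match the coding sequence of the RNA polymerase subunit gene Polr1d without a substitution, read 1.66 to 4.67 CPM in KO and 0 to 0.0789 CPM in WT. Its sum with Polr1d was 45.7 ± 4.14 CPM in KO and 42.8 ± 8.60 CPM in WT (adjusted p = 0.208). Gm6166, a pseudogene of the fatty acid binding protein gene Fabp5 with 5 substitutions, was present in some KO libraries only. It read 13 to 37.7 CPM in KO saline replicates 1 to 4 and KO LPS replicates 1 and 3, and 0 to 0.0627 CPM in the other 4 KO libraries. WT libraries read 0.0394 to 0.237 CPM, and the sum with Fabp5 was 95.02 ± 13.2 CPM in KO and 92.8 ± 21.5 CPM in WT (adjusted p = 0.666). Gm6166 and the genes Amd2 and Lgr6 below were picked after their values were seen, and Lgr6 lost its call in 11 of the 20 fits that leave out 1 library.

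KO libraries also differed among themselves at protein-coding genes. Catspere1, a subunit of the sperm calcium channel complex, read 0 in KO saline replicates 2 and 3 and KO LPS replicate 5, the same 3 libraries that lacked Gm13736, and 0.872 to 2.49 CPM in the other 7. WT libraries read 0 to 0.0922 CPM, with 3 counts over all 10. Its neighbour and partial copy Catspere2 read 4.92, 1.96, 2.21, 4.99 and 4.37 CPM in KO saline replicates 1 to 5, 5.72, 5.17, 3.16, 4.57 and 2.01 CPM in KO LPS replicates 1 to 5, and 1.77 to 3.15 CPM in WT. Catspere2 was called higher in KO (adjusted p = 0.0378, edgeR) and lost its call in 14 of the 20 fits that leave out 1 library. Amd2, a copy of the polyamine synthesis gene Amd1, read 1.01, 0.383 and 0.580 CPM in KO saline replicates 1 and 2 and KO LPS replicate 1, 5.45 to 15.3 CPM in the other 7 KO libraries, and 0.487 to 1.87 CPM in WT. Lgr6, a receptor of R-spondins, ranged from 2.38 to 26.9 CPM in KO and from 2.37 to 3.98 CPM in WT.

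**Figure D2:**
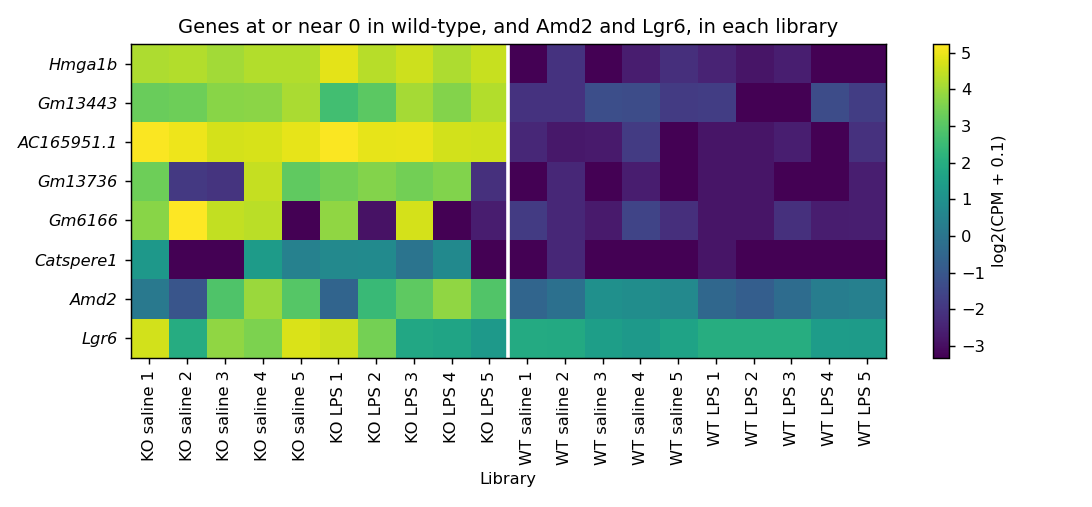
Level of 8 genes, as log2 of CPM plus 0.1 (colour), in each of the 10 KO libraries (left) and 10 WT libraries (right of the white line). Hmga1b, Gm13443 and AC165951.1 are high in all 10 KO libraries, while Gm13736 and Catspere1 are near 0 in the same 3 of them and Gm6166 in 4.

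A larger share of genes close to Fkbp5 than of genes elsewhere was called. Within 5 Mb on either side, 15 of 226 genes tested differed (6.64%), 10 higher and 5 lower in KO, Fkbp5 included. Between 5 and 20 Mb away, 0 of 303 passed in edgeR, with 23 before adjustment, and DESeq2 called 4 and limma-voom 0. Farther along chromosome 17 the count was 1 of 249 (0.402%), and on other chromosomes 146 of 15641 (0.933%). With Fkbp5 and Hmga1, the genes lower within 5 Mb were Decr2, Luc7l and Cdkn1a, of which Luc7l lost its call in 6 of the 20 fits that leave out 1 library.

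The largest difference near Fkbp5 was at AC165951.1 (ENSMUSG00000117786, chromosome 17, 30920338 to 30963220, minus strand), annotated as an antisense RNA 2.40 Mb from Fkbp5, with a span that overlaps the start of Umodl1 on the other strand. It read 24.4, 30.2 and 36.4 CPM in the lowest, median and highest KO library and 0, 0.0497 and 0.178 CPM in WT, where all 10 libraries together held 12 counts. The log2 fold change was 8.79 ± 0.17 (adjusted p = 8.68e-21), the smallest p of all genes tested. The library kit is not described as keeping strand, so reads of an antisense gene and of its partner on the other strand cannot be told apart.

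Other neighbours differed by less. Dnah8, an axonemal dynein heavy chain whose annotation overlaps that of Glo1 on the other strand, read 1.13, 2.02 and 2.90 CPM in KO and 0.245, 0.535 and 0.967 CPM in WT, without overlap (log2 fold change 1.73 ± 0.24, adjusted p = 9e-05). Decr2, a peroxisomal enzyme of fatty acid oxidation, read 17.3, 20.5 and 23.8 CPM in KO and 25.3, 31.6 and 38.1 CPM in WT, also without overlap (log2 fold change -0.65 ± 0.07, adjusted p = 8.24e-06). Umodl1 (1.04), the inositol hexakisphosphate kinase Ip6k3 (1.09), the secreted protein gene Pi16 (1.25), the antisense RNAs Gm16758 (1.40) and AC165962.1 (0.75), the adhesion gene Mdga1 (0.41) and the endocytosis adaptor Pacsin1 (0.21) rose as well, given as log2 fold changes. Of these, Ip6k3, Pi16, Gm16758, Mdga1 and Pacsin1 were picked after their values were seen, as was Btbd9 below. Pacsin1 lost its call in 16 of the 20 fits that leave out 1 library. Cdkn1a, the cyclin-dependent kinase inhibitor p21 and a target of the glucocorticoid receptor, lies 0.573 Mb from Fkbp5 and fell, at 3.83, 5.58 and 6.56 CPM in KO and 5.44, 7.24 and 9.34 CPM in WT (log2 fold change -0.44 ± 0.10, adjusted p = 0.0332). The KO and WT ranges overlapped, and Cdkn1a missed the threshold in 15 of the 20 fits that leave out 1 library. Btbd9, a gene beside Glo1, averaged 111 ± 8.78 CPM in KO and 112 ± 9.11 CPM in WT (adjusted p = 0.984).

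**Figure D3:**
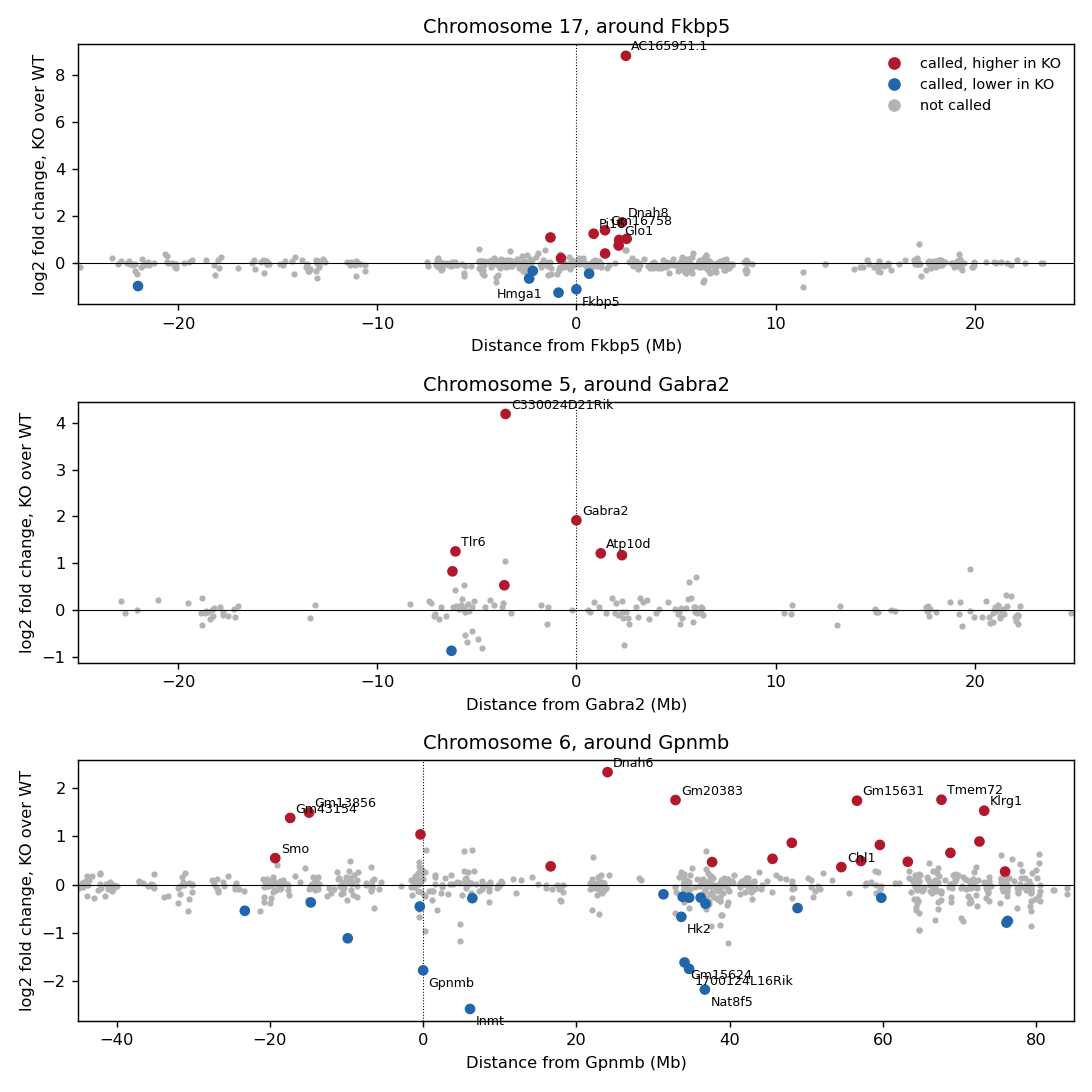
Log2 fold change, KO over WT, of each gene tested against its distance in Mb from Fkbp5 on chromosome 17, from Gabra2 on chromosome 5 and from Gpnmb on chromosome 6; red and blue points passed the test, grey points did not. Called genes sit within 5 Mb of Fkbp5, with 1 more at 21.9 Mb on the left, and in several groups along chromosome 6.

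The share of genes called differed among the other chromosomes. Chromosome 6 held 40 of 824 genes tested (4.85%), chromosome 1 held 20 of 1001 (2%), chromosome 5 held 19 of 1054 (1.8%), chromosome 11 held 17 of 1271 (1.34%) and chromosome 18 held 6 of 462 (1.3%). Chromosome 13 had 0 of 623 in edgeR, with 51 before adjustment, and DESeq2 called 2 and limma-voom 0. With the 16 on chromosome 17, these 6 chromosomes carried 118 of the 162 called genes among 5390 tested (2.19%), against 44 of 11029 on the rest (0.399%). The 6 were picked after the counts were seen, so the split is a description.

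**Figure D4:**
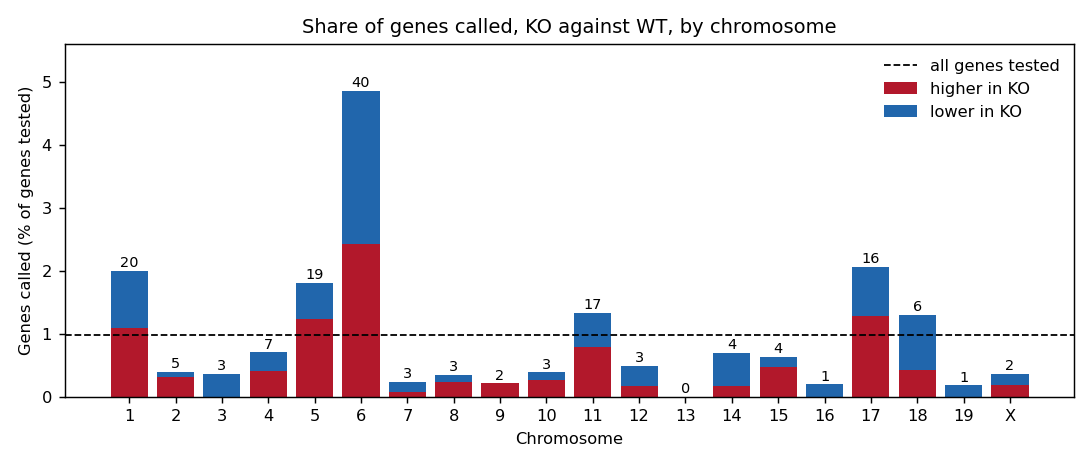
Share of genes tested that were called, in percent, by chromosome, with genes higher in KO in red, genes lower in KO in blue and the number called above each bar. Chromosome 6 reaches 4.85%, while the dashed line marks 0.987% for all genes tested.

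Joining called genes less than 3 Mb apart, outside 20 Mb of Fkbp5, gave 16 intervals of 3 or more called genes, holding 74 of the 535 genes tested there (13.8%, a share that the way intervals were built makes high), 37 higher and 37 lower. The 74 became 46 without KO LPS replicate 3 and 49 without WT LPS replicate 4. The interval with the most called genes was on chromosome 6 from 80018877 to 86793584, where 9 of 11 called genes were lower in KO. They include Nat8f5 (log2 fold change -2.17, adjusted p = 0.00012) and Nat8f4 (-0.40), members of an N-acetyltransferase family, and Hk2, hexokinase 2, at 3.07, 4.89 and 8.15 CPM in KO and 6.41, 7.94 and 9.22 CPM in WT (-0.67 ± 0.14, adjusted p = 0.0157). KO and WT libraries overlapped at both Hk2 and Nat8f5. Hk2 and Nat8f4 were picked after their values were seen, and Nat8f4 lost its call in 10 of the 20 fits that leave out 1 library.

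Other intervals of chromosome 6 held signalling and immune genes. Smo, the transducer of Hedgehog signals, read 26.2, 41.3 and 51.5 CPM in KO and 18.8, 30.2 and 34.1 CPM in WT (log2 fold change 0.55 ± 0.07, adjusted p = 8.84e-05). Klrg1, an inhibitory lectin-like receptor of NK and T cells, read 0.688, 0.849 and 1.68 CPM in KO and 0.162, 0.313 and 0.580 CPM in WT (1.53 ± 0.22, adjusted p = 0.000279). Klrg1 values did not overlap between the groups. Smo values overlapped over all libraries, though within each library set every KO library was above the WT range. Scnn1a, the α subunit of the epithelial sodium channel, fell by 0.75 on the log2 scale, at 4.28 to 8.72 CPM in KO and 8.24 to 14.9 CPM in WT. Chl1, a neural cell adhesion molecule at the start of another interval, rose by 0.36 (adjusted p = 0.047); it was picked after its values were seen and lost its call in 16 of the 20 fits that leave out 1 library.

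On chromosome 5, the interval with Gabra2 also held Atp10d, a lipid flippase (log2 fold change 1.21, adjusted p = 0.0459), and a neighbouring interval held Tlr6, a receptor for bacterial lipopeptides. Atp10d lost its call in 15 of the 20 fits that leave out 1 library, with an adjusted p up to 0.0997, and its log2 fold change was 0.27 in replicates 1-2 and 2.21 in replicates 3-5. Tlr6 read 0.978, 1.43 and 2.16 CPM in KO and 0.355, 0.626 and 0.960 CPM in WT, without overlap (1.25 ± 0.19, adjusted p = 0.000319). In another interval of chromosome 5 Zkscan1, a zinc finger gene, read 49.7, 52.0 and 56.4 CPM in KO and 29.0, 36.7 and 43.9 CPM in WT, also apart (0.53 ± 0.06, adjusted p = 5.3e-06).

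On chromosome 1, Mcm6, a subunit of the replicative helicase, was lower in KO. It read 3.22, 6.89 and 17.98 CPM in the lowest, median and highest KO library and 12.7, 19.4 and 24.2 CPM in WT (log2 fold change -1.41 ± 0.25, adjusted p = 0.00367). KO saline replicate 2 held the 17.98 CPM and lay inside the WT range, while the other 9 KO libraries, at 3.22 to 10.1 CPM, lay below it. On chromosome 18, Myo5b, a myosin of vesicle recycling, read 102, 135 and 189.9 CPM in KO and 67.4, 75.1 and 119.7 CPM in WT (0.83 ± 0.10, adjusted p = 4.65e-05); WT saline replicate 2 was the WT library at 119.7 CPM.

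KO libraries were not alike at these genes. The number of the 162 called genes at which a KO library lay inside the WT range of its own set varied. It ran from 10 (6.17%) in KO LPS replicate 3 to 40 (24.7%) in KO LPS replicate 1 and 41 (25.3%) in KO saline replicate 2. The 162 were called from these same libraries, which keeps the numbers low. The range was taken over 4 WT libraries in replicates 1-2 and 6 in replicates 3-5. At all genes tested, the share inside the range was 47.6% to 66.7% per KO library. In the chromosome 1 interval that holds Catspere1 and Catspere2, KO saline replicate 2 and KO LPS replicate 5 lay inside the WT range at 4 of the 5 called genes each. Over the 162 genes the count was 20 to 41 in the 4 KO libraries of replicates 1-2 and 10 to 23 in the 6 of replicates 3-5. The part of the library set in this was not tested.

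Outside the 20 Mb around Fkbp5, the intervals and the genes with a copy, 57 of 14538 genes were called (0.392%), 28 higher and 29 lower in KO. Together with those that have a copy, 73 genes lay outside the window and intervals, and 125 without KO LPS replicate 1. The differences of the 57 had a median size of 0.46 on the log2 scale, with 9 past 2-fold, and 8 of the 57 lay on chromosome 6. Zfp239, a zinc finger gene on chromosome 6, read 45.8, 49.9 and 60.1 CPM in KO and 26.5, 32.6 and 36.1 CPM in WT (log2 fold change 0.66 ± 0.06, adjusted p = 9.88e-08). Dnah6, another axonemal dynein heavy chain on chromosome 6, read 3.15, 4.61 and 7.60 CPM in KO and 0.184, 1.01 and 1.71 CPM in WT (2.33 ± 0.21, adjusted p = 1.65e-07). Neither gene's groups overlapped.

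Metabolic and neuronal genes were among the rest. C1ql2, a synaptic organiser secreted by dentate granule cells at mossy fibre synapses, read 55.2, 101 and 126 CPM in KO and 121, 188 and 242 CPM in WT (log2 fold change -0.96 ± 0.14, adjusted p = 0.000463). Only KO saline replicate 2, at 126 CPM, reached the WT range. Tfrc, the transferrin receptor for iron uptake, read 65.7, 77.9 and 90.3 CPM in KO and 89.0, 104 and 114 CPM in WT (-0.42 ± 0.06, adjusted p = 0.000124). The Tfrc ranges overlapped over all libraries, but each KO library lay below the WT range of its set. Cth, which makes cysteine from cystathionine, fell by 0.87 (adjusted p = 0.000382), and Inmt, an indolethylamine methyltransferase, fell by 2.57 at a low level (0.0426 to 0.480 CPM in KO, 0.267 to 2.61 CPM in WT; adjusted p = 8.34e-05).

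Other differences, in genes picked after their values were seen, lay in signalling and stress genes. Adcyap1r1, the receptor of the neuropeptide PACAP, read 153, 234 and 267 CPM in KO and 193, 277 and 302 CPM in WT (log2 fold change -0.28 ± 0.05, adjusted p = 0.00211). Its ranges overlapped over all libraries, and within each library set every KO library was below the WT range. Glp2r, the receptor of glucagon-like peptide 2, read 3.15, 6.66 and 12.0 CPM in KO and 1.91, 3.12 and 5.20 CPM in WT (1.07 ± 0.17, adjusted p = 0.000767). Atf5, a stress-responsive transcription factor, fell by 0.38 (adjusted p = 0.00606) and Tnfsf10, the death ligand TRAIL, by 0.59 (adjusted p = 0.0383). Id3, an inhibitor of helix-loop-helix factors, rose by 0.30 (adjusted p = 0.0359) and Hrk, a pro-apoptotic BH3-only gene, by 0.28 (adjusted p = 0.029). Of the 20 fits that leave out 1 library, the call was lost in 13 for Tnfsf10, 11 for Id3 and 10 for Hrk.

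Genes of the glucocorticoid pathway were read as short lists, where 0 or 1 call says little beside the 0.987% called among all genes. The lists of pathway and cell type genes below were chosen with earlier results of these libraries known; 12 of their 429 members tested were called by edgeR (2.8%, against 0.987% of all genes tested), while DESeq2 called 19 and limma-voom 10. Before adjustment 79 had p under 0.05 (18.4%, against 10.9% of all genes tested). The 12 became 5 without KO saline replicate 4 or WT saline replicate 5, 6 without KO saline replicate 3 or KO LPS replicate 3, and 7 without KO saline replicate 1, WT saline replicate 3 or 4, or WT LPS replicate 4 or 5. Of 21 glucocorticoid receptor targets, Cdkn1a alone passed and fell (2 at an unadjusted p under 0.05; DESeq2 called 1 and limma-voom 0), and the list median was 0.02, beside 0.00 for all genes tested. Of 19 corticosteroid receptors and HSP90 co-chaperones none passed, with a median of 0.08 and 2 at an unadjusted p under 0.05. Of 12 other FKBP immunophilins none passed, with a median of -0.02 and 0 at an unadjusted p under 0.05. DESeq2 called 0 in either list.

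KO and WT ranges overlapped at the receptor and chaperone genes. Nr3c1, the glucocorticoid receptor, read 43.9 to 94.4 CPM in KO and 53.3 to 95.8 CPM in WT (log2 fold change 0.01 ± 0.10, adjusted p = 0.987), and Nr3c2, the mineralocorticoid receptor, had a log2 fold change of 0.12 ± 0.09 (adjusted p = 0.696). The paralogous co-chaperone Fkbp4 was at -0.04 ± 0.05 (adjusted p = 0.824) and Hsp90aa1, inducible HSP90, at 0.26 ± 0.14 (adjusted p = 0.515). The receptor targets Tsc22d3 (0.00 ± 0.07), Sgk1 (0.06 ± 0.09) and Per1 (0.00 ± 0.06) did not pass either, with adjusted p of 0.993, 0.859 and 0.989. KO and WT ranges overlapped at each of these genes.

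Myelin genes were the list with the most members called. All 15 genes of oligodendrocytes and myelin tested had values below 0, with a median log2 fold change of -0.26. In edgeR 3 of the 15 passed and fell, where 0.987% of all genes tested were called, while DESeq2 called 4 and limma-voom 3. Before adjustment 10 of the 15 had p under 0.05, against 10.9% of all genes tested. Opalin, a myelin membrane glycoprotein, read 8.70, 14.7 and 17.98 CPM in KO and 15.5, 20.2 and 35.5 CPM in WT (-0.59 ± 0.13, adjusted p = 0.0201). Mal, a proteolipid of compact myelin, fell by 0.50 (adjusted p = 0.0435) and Cldn11, the tight junction protein of myelin, by 0.38 (adjusted p = 0.029). The KO and WT ranges overlapped for all 3. The major myelin genes did not pass: Mbp was at -0.15 (adjusted p = 0.49) and Mog at -0.34 (0.085), both given after their values were seen.

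The summed level of the 15 myelin genes was 2691 to 4769 CPM in KO libraries and 3334 to 6993 CPM in WT libraries. WT LPS replicate 2 alone held the 6993 CPM, and the next WT library was at 5379 CPM. Without WT LPS replicate 2 the log2 fold change was -0.50 for Opalin, -0.39 for Mal and -0.32 for Cldn11. Each of these genes kept its call in that fit. The sum also moved with library set, at 3883 to 6993 CPM in replicates 1-2 and 2691 to 4421 CPM in replicates 3-5. What tissue composition contributed was not tested. Without 1 library, the call was lost in 14 of 20 fits for Mal, with an adjusted p up to 0.105, and in 9 of 20 for Cldn11.

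The next cell type lists held at most 2 calls each. Among all genes tested 0.987% were called and 10.9% had an unadjusted p under 0.05. Of 12 genes of neurogenesis and proliferation, 2 fell: Dcx, a microtubule protein of young neurons, at 10.3, 12.0 and 14.3 CPM in KO and 11.8, 14.3 and 21.2 CPM in WT (-0.33 ± 0.08, adjusted p = 0.0359), and Igfbpl1 (-0.79, adjusted p = 0.0265). Before adjustment, too, 2 of these 12 had p under 0.05. With 1 library left out, Dcx lost its call in 14 of 20 fits and Igfbpl1 in 6 of 20. Of 10 dentate granule cell genes only C1ql2 passed in edgeR, with a list median of -0.08, while DESeq2 called 3 and 5 had an unadjusted p under 0.05. Of 9 choroid plexus genes only Tmem72 passed and rose in edgeR (1.76, adjusted p = 0.0294; 3 at an unadjusted p under 0.05), and it lost its call in 11 of the 19 fits in which it was tested. Of 5 blood genes only Hba-a2, an α-globin, passed and fell in edgeR (-3.56, adjusted p = 0.0399), at a mean of 0.109 CPM in KO and 2.06 CPM in WT. The Hba-a2 call was lost in 14 of 20 fits and limma-voom did not make it. Its near-identical copy Hba-a1 averaged 17.01 ± 16.1 CPM in KO and 11.7 ± 12.6 CPM in WT, and the summed pair 17.1 ± 16.0 CPM in KO and 13.8 ± 14.96 CPM in WT (SD, n = 10 each; exact permutation p = 0.544, adjusted p = 0.608). The summed choroid plexus level was 28.9 to 136 CPM in KO and 24.7 to 88.8 CPM in WT, and the summed blood level was 1.79 to 81.6 CPM in KO and 1.05 to 85.6 CPM in WT.

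Some lists leaned one way with no member called in edgeR. All 9 ependymal and ciliary genes had values above 0, with a median of 0.33 (2 at an unadjusted p under 0.05), and all 13 mitochondrially encoded genes of the list had values below 0, with a median of -0.14 (3 at an unadjusted p under 0.05). Outside the list, the mitochondrial tRNA genes mt-Tp (-0.39, adjusted p = 0.00265) and mt-Tl1 (-0.44, adjusted p = 0.016) fell, both picked after their values were seen. Of 12 endothelial genes 2 lay above 0 (median -0.14, 5 at an unadjusted p under 0.05). Of 16 cholesterol synthesis genes 1 lay above 0 (median -0.05, 1 at an unadjusted p under 0.05). DESeq2 called 1 gene in the endothelial list and 1 in the cholesterol list. None of 20 reactive astrocyte genes passed (median 0.06, 6 at an unadjusted p under 0.05) and none of 14 astrocyte genes (median 0.02, 3 at an unadjusted p under 0.05). Gfap, the astrocyte intermediate filament, read 389, 499 and 599 CPM in KO and 364, 460 and 533 CPM in WT (0.18 ± 0.06, adjusted p = 0.227). None of 21 interferon response genes (median -0.12), 14 complement genes (-0.08), 16 NF-kB and cytokine genes (0.00), 14 MHC class I genes (-0.11) and 7 MHC class II genes (-0.08) passed, with 1, 3, 0, 1 and 0 of them at an unadjusted p under 0.05. DESeq2 called 0 in each of these lists other than the endothelial and cholesterol ones, the astrocyte, ependymal and mitochondrial lists included.

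Of 6 tested genes listed as differing between C57BL/6J and other mouse lines, 2 were called, Glo1 and Gabra2, both higher in KO. Among all genes tested 0.987% were called. This list was also chosen with earlier results of these libraries known, so the 2 calls are no test of it. As background, C57BL/6J carries an intronic deletion in Gabra2 that lowers its RNA, and some other inbred strains carry a duplication that includes Glo1. Which alleles these mice carry was not tested. Nnt, a mitochondrial transhydrogenase gene with a deletion of exons in C57BL/6J, was too low to test, at 0.0426 to 0.290 CPM in KO and 0.0394 to 0.457 CPM in WT.

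No gene was shown to differ between genotypes by a different amount after LPS than after saline. A term for genotype by treatment was significant for 0 of 16419 genes in edgeR (smallest adjusted p = 0.989), with 472 genes at an unadjusted p under 0.05, 4 of them among the 162, and for 0 in DESeq2 and limma-voom. All 145 called genes that could be tested within each treatment had the same direction after LPS and after saline, a direction that calling them over both treatments favours. Fitted alone, the LPS libraries gave 20 called genes (0.13%) and the saline libraries 40 (0.26%). Fkbp5 fell in both, by 1.17 on the log2 scale after LPS (adjusted p = 6.83e-05) and by 1.04 after saline (adjusted p = 0.00022).

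The library sets gave a different picture. In replicates 3-5 alone, 6 KO against 6 WT libraries, 1251 of 15523 genes were called (8.06%), 730 higher and 521 lower in KO. In replicates 1-2 alone, 4 against 4, it was 15 of 17718 (0.0847%). Of 1249 of the 1251 genes that were tested in replicates 1-2, 557 (44.6%) had the same direction there, beside 45.4% for all 15488 genes in both fits, and 13 were called. Of the 162 genes called over all libraries, 160 were tested in both sets and all 160 had the same direction in both, a direction that calling them over both sets favours.

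**Figure D5:**
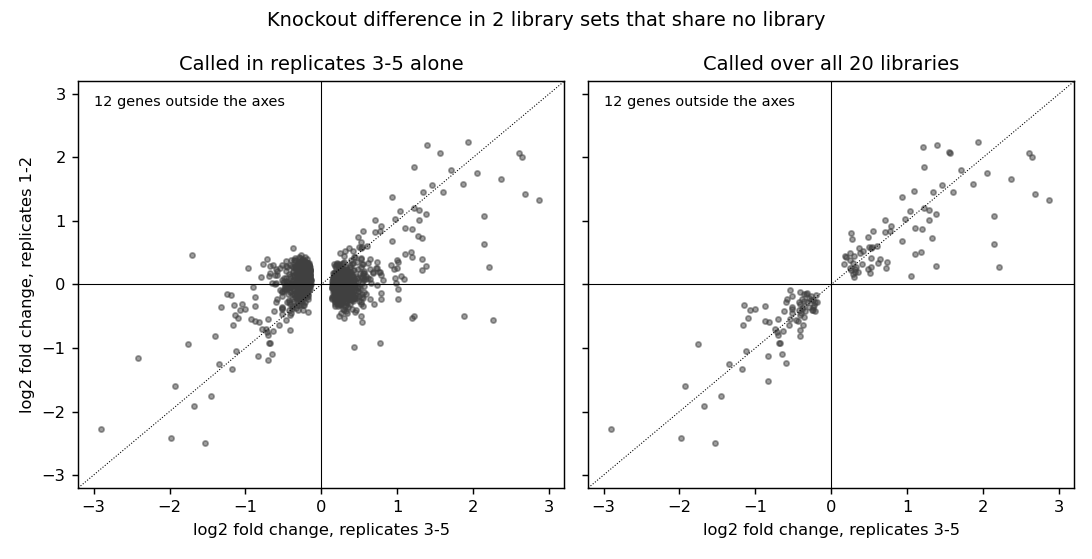
Log2 fold change, KO over WT, in replicates 1-2 (vertical axis) against replicates 3-5 (horizontal axis), for genes called in replicates 3-5 alone (left) and genes called over all 20 libraries (right); the dotted line marks equal values, and 12 genes lie outside the axes of each panel. On the left most points sit near 0 on the vertical axis on both sides, with 44.6% of genes in the same direction; on the right all 160 genes lie in the quadrants of equal direction.

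The difference between sets was tested directly. A term for genotype by library set was significant for 17 of 16419 genes in edgeR (0.104%), and 2681 passed at an unadjusted p under 0.05. The count varied with the method: DESeq2 gave 592, limma-voom 13, edgeR without a filter on low counts 741, and a replicate block in edgeR 122. Rbm43, an RNA-binding protein gene, was the only one of the 17 also called over all libraries, and was chosen after its values were seen. It read 11.2 to 14.5 CPM in KO libraries of replicates 1-2, 18.03 to 28.3 CPM in KO libraries of replicates 3-5, and 10.1 to 13.9 CPM in WT. Its log2 fold change was 0.14 in replicates 1-2 and 1.05 in replicates 3-5 (difference 0.95 ± 0.15, adjusted p = 0.0159). The count of 17 rests on single libraries, since it was 1487 without KO LPS replicate 1, 462 without KO saline replicate 1, 259 without WT saline replicate 1 and 4 to 45 without any other library.

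Gene length moved with the difference in opposite ways in the sets. With genes split into 3 equal parts by exon length, the median log2 fold change of the shortest part was 0.11 in replicates 1-2 and -0.06 in replicates 3-5, and that of the longest part was -0.04 and 0.06. The mitochondrial share was 8.41% to 9.71% in KO and 9.42% to 11.4% in WT libraries of replicates 3-5. The part of length and mitochondrial share in the 1251 calls was not tested. Over all libraries the shortest part had a median of 0.00 and the longest 0.01.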

How the data were processed

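Hippocampal RNA from 20 libraries, 5 in each of 4 groups, was sequenced by the authors and deposited as 1 table of raw read counts per gene. Per the submitters' processing notes the steps used Trimmomatic 0.38, FastQC, MultiQC and featureCounts 1.6.0 with mm10; the aligner, strand setting and treatment of multiply mapped reads are not given in the sources used here. All 55536 gene IDs matched the GENCODE annotation of GRCm38 used for positions and transcripts, and all 20 columns were used.

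The deposited counts were tested in edgeR 4.0.16 (R 4.3.3): genes kept by filterByExpr over the groups, TMM scaling, and the robust quasi-likelihood test with treatment, library set (replicates 1-2, 3-5) and genotype as terms, Benjamini-Hochberg over all 16419 genes, threshold 0.05. CPM are counts scaled to an effective library size of 1000000, the library total times its TMM factor. For near-identical copies, GENCODE transcripts were searched against each other in BLAST 2.17.0, and matches of 95% identity or more covering 30% of the length were kept. Summed pairs were tested by an exact two-sided permutation of genotype within treatment and library set. The counting precision follows totals of 16653000 to 27230000 counts per library.

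Named genes are Fkbp5, the 15 with the smallest p in each direction with an established symbol, 8 within 20 Mb of Fkbp5, up to 4 per interval and per list, up to 10 with a copy, and 11 genes given in any case; the others given in the text were chosen after their values were seen. A few genes are not reported here. The comparison, lists and rules were chosen with earlier results of these data known. Tested on simulated counts of 16242 genes for this comparison, the fit recovered 54 of 67 genes changed by 0.5 on the log2 scale, 58 of 65 changed by 1 and 62 of 62 changed by 2, and 5.95% of its calls were false. The simulated counts were drawn independently, with no genotype difference between library sets and no deviation shared by the genes of a library. The 5.95% is therefore not an estimate of the false share among the calls in the real libraries. Alternatives were DESeq2 1.42.0, limma-voom (limma 3.58.1), other scalings and filters, other model terms, subsets of libraries, and other copy, window and gap limits.

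Replicate numbers are shared across groups, but the labels do not say what they mark. Deviations of libraries with the same number had correlations with a median of 0.527, against 0.538 for libraries with another number in the same set. The numbers were therefore not treated as pairs. Of 20 libraries, 10 correlated best with their own number. The count due to chance was not worked out, so the 10 does not decide whether the numbers mark pairs.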

Additional observations from a re-analysis of the deposited data

Results flagged for a closer look

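Among 37 genes described, each checked in 4 groups of 5 libraries (148 checks), 10 held 1 library far from the other 4 of its group; chance alone gives about 1 in 20. In KO libraries, Mcm6 was 17.98 CPM in KO saline replicate 2 (4.78 to 7.74 CPM in the other 4), Dnah6 was 7.603 CPM in KO saline replicate 1 (4.22 to 4.94 CPM), Gm13736 was 0.1254 CPM in KO LPS replicate 5 (10.5 to 12.3 CPM) and Tmem181b-ps was 95.71 CPM in KO LPS replicate 1 (9.49 to 27.3 CPM).

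In WT libraries, Myo5b was 119.7 CPM in WT saline replicate 2 (67.4 to 75.9 CPM in the other 4), Mal was 321.7 CPM in WT LPS replicate 2 (161 to 192 CPM) and Hba-a2 was 3.976 CPM in WT saline replicate 5 (0.0914 to 0.830 CPM). At levels of a few counts, Gm6166 was 0.1289 CPM in WT LPS replicate 3, and Catspere1 was 0.09225 CPM in WT saline replicate 2 and 0.03945 CPM in WT LPS replicate 1, with 0 in the other 4 libraries of either group.

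The knockout difference depended on the library set for 17 genes by the genotype by set term of edgeR. Rbm43 was one of them, with a difference of 0.9466 on the log2 scale, replicates 3-5 minus replicates 1-2.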

How the results depend on the processing

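No named gene that was called changed direction in any setting. Of those not called, 7 had the other sign in at least 1: Nr3c1, Per1, Tsc22d3, Sgk1, Fkbp4, Polr1d and Rpl30. Over 19 other settings, 1631 of 1905 gene values stayed on the same side of the threshold, 269 lost the call and 5 gained it. The 1631 include values of genes not called whose sign changed. The settings with 98% identity for a copy, a 5 Mb window and a 1 Mb gap reuse the main fit. All 102 gene values in each of them were therefore the same by construction. Leaving out 1 library, 70 of 89 called named genes kept the call in every fit and 19 lost it in at least 1. Fkbp5 passed in every setting, from -1.14 to -1.08 when 1 library was left out. The cause of the shifts in counts below was not tested, beyond fewer libraries or genes where a setting has them.

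Over all 20 libraries 162 genes were called (87 higher, 75 lower), 15 near Fkbp5, 74 in intervals, 73 elsewhere, 21 with a copy, 12 in lists and 8 pairs, and 17 depended on the set. DESeq2 called 272 (136 higher, 136 lower), all 162 among them, with 122 in intervals, 128 elsewhere, 19 in lists and 592 by set. Without a filter there were 544 (282 higher, 262 lower), with 35 near Fkbp5, 306 in intervals, 203 elsewhere, 66 with a copy, 46 in lists and 741 by set. A minimum of 1 CPM in 5 libraries gave 26 by set. Without the set term there were 79 (53 higher, 26 lower), with 21 in intervals, 48 elsewhere and 5 in lists. With a 1 Mb gap, intervals held 39.

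Replicates 1-2 alone gave 15 (12 higher, 3 lower), with 5 near Fkbp5, 0 in intervals, 10 elsewhere, 7 with a copy, 3 in lists and 0 pairs. Replicates 3-5 alone gave 1251 (730 higher, 521 lower), with 43 near Fkbp5, 1028 in intervals, 180 elsewhere, 103 with a copy and 61 in lists. Joining called genes less than 3 Mb apart puts a larger share of them in intervals as more genes are called. The 1028 is therefore no measure of grouping along chromosomes. LPS libraries alone gave 20 (14 higher, 6 lower), with 4 near Fkbp5, 0 in intervals, 16 elsewhere, 7 with a copy, 3 in lists, 0 by set and 0 pairs. Saline libraries alone gave 40 (27 higher, 13 lower), with 7 near Fkbp5, 7 in intervals, 26 elsewhere, 7 with a copy, 3 in lists, 1 by set and 0 pairs. In these subsets a pair test has few arrangements. Without the 3 libraries highest in thalamus markers, 704 depended on the set; without the 2 highest in meningeal markers, 43 lay in intervals, 7 in lists and 0 depended on the set.

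With 1 library left out, the calls ranged from 116 to 254 (67 to 138 higher, 47 to 116 lower), 12 to 22 near Fkbp5, 46 to 107 in intervals, 52 to 125 elsewhere, 17 to 24 with a copy, 5 to 14 in lists, 4 to 1487 by set and 8 to 11 pairs. The upper ends of all but the pairs came without KO LPS replicate 1. With replicate number as a block (replicate block), 183 genes were called, 153 of them among the 162, and 122 depended on the set; the samples share only a number.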

Other observations

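Copies that were high in some KO libraries and near 0 in others did not all follow the same libraries. KO saline replicates 2 and 3 and KO LPS replicate 5 lacked both Gm13736 (chromosome 2) and Catspere1 (chromosome 1), which are annotated on different chromosomes. Srp9, the parent of Gm13736, also lies on chromosome 1, at 182124737 to 182132407. The interval with Catspere1 and Catspere2 runs from 171437535 to 178172704 on that chromosome. Gm6166 was instead near 0 in KO saline replicate 5 and KO LPS replicates 2, 4 and 5, and Amd2 was low in KO saline replicates 1 and 2 and KO LPS replicate 1. Lgr6 read 10.8 to 26.9 CPM in 6 KO libraries and 2.38 to 3.83 CPM in the other 4, against 2.37 to 3.98 CPM in WT. These genes were picked after their values were seen, and no explanation was tested.

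Tmem181b-ps, a pseudogene farther along chromosome 17 picked after its values were seen, was called lower in KO (log2 fold change -0.96, adjusted p = 0.00908, edgeR) over a wide range of levels, 9.49 to 95.7 CPM in KO and 14.7 to 126 CPM in WT. Tmf1, a Golgi protein gene on chromosome 6, had log2 fold changes of 0.29 in replicates 1-2 and 1.38 in replicates 3-5, and lost its call in 6 of the 20 fits that leave out 1 library.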
